A study of Homo sapiens with 15 samples.

Results

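The G1/S and DNA replication genes are 50 protein-coding genes that carry a cell from the commitment to divide through the copying of its DNA, and their transcripts were followed in HEK-293T cells given Cas9 and guides against THAP1. They were chosen by name from a list of regulators of the G1/S transition, origin licensing factors, helicase components, polymerases, nucleotide enzymes and chromatin assembly factors, and each of the 50 stands on 1 line among the 35805 genes of the table. All 50 passed the filter on low values that 16787 genes passed. The question put to them was whether their levels differed between cells with a THAP1 guide and cells with a control guide. A further question was whether they differed between cells with a control guide and untransduced cells.

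HEK-293T is a human embryonic kidney line that carries the large T antigen of a simian virus, a protein that binds the retinoblastoma protein. THAP1 is a zinc-finger transcription factor mutated in an inherited dystonia. There were 15 libraries, 3 in each of 5 groups. The sgTHAP1 cells received Cas9 with either of 2 guides against THAP1, sg1-THAP1 or sg2-THAP1. The sgControl cells received Cas9 with either of 2 control guides, sg1-Control or sg2-Control, and the remaining cells were untransduced. Per the study's text, the THAP1 knockout cells carried GFP at the PSMB5 locus, overexpressed PSMB5 to stay viable and were sorted as a GFP-dim population, so that they are a mixed population and not a clone. Whether the sgControl and untransduced cells carried the same reporter and PSMB5 construct, or were sorted, is not given in the sources used here, so effects of these steps and of the THAP1 guides cannot be told apart. The study describes the replicates as biological.

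Entry into S phase is set by D-type cyclins with CDK4 or CDK6 and by E-type cyclins with CDK2, which phosphorylate RB1 and release E2F transcription factors from it. E2F1, E2F2 and E2F3 then drive the genes of replication. In G1 the origin recognition complex, CDC6 and CDT1 load rings of MCM2 to MCM7 onto DNA, a step called licensing. In S phase MCM10, CDC45 and the 4 GINS proteins turn each ring into a running helicase, and polymerases alpha, delta and epsilon copy the strands behind it. Large T antigen is known to free E2F from RB1.

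Libraries held 30645102 to 47754883 reads in the sgTHAP1 groups, 31900201 to 56638461 in the sgControl groups and 30400149 to 36548571 in untransduced cells. The deposited values are log2 RPM, the log2 of a gene's reads scaled to one common library size (RPM). THAP1 itself stood at 5.48 to 6.18 log2 RPM in the 6 sgTHAP1 libraries, 3.25 to 3.57 in the 6 sgControl libraries and 3.36 to 3.46 in the 3 untransduced ones. The THAP1 transcript was thus higher, not lower, in every library labelled sgTHAP1 than in the 9 others. A Cas9 lesion alters the sequence of a gene and not necessarily its transcript level, so the level does not check the knockout, and the groups are named here as the labels give them. Of the HEK-293T markers followed, LIN28B, SALL1, IGF2BP1, IGF2BP3 and PAX2 were detected in every library, and the T cell genes CD3D and CD3G had no read in any. A gene was called at a Benjamini-Hochberg adjusted p under 0.05 over the 16787 genes in limma, and a strict call further required that the adjusted p lie under 0.001 and the change exceed 2-fold. The median gene lay at -0.06 in sgTHAP1 against sgControl and at -0.12 in sgControl against untransduced cells on the log2 scale, and member changes are to be read against these shifts.

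Promoters of the members were inspected first because E2F binding to its short site is the best known feature of this gene class. RefSeq (GRCh38.p14) windows of 250 bases before to 50 bases after the start were found for 42 of the 50 members. The only window of RB1, chr13:48476200-48476499, lies near the end of the gene as listed, chr13:48303751-48481986 on the plus strand. The sequence at the listed start of RB1 was thus not searched, though RB1 is counted among the 42. The letters TTTCCCGC, TTTCGCGC, TTTGCCGC and TTTGGCGC were searched on both strands and are called an E2F site here. A site was present in 22 of the 42 members, or 52.4%, against 3.99% of the 27305 genes with a window and 6.44% of the 10822 of these that were tested. In the 250 bases before the start alone it was present in 17 members, 40.5%, against 3.40% of all genes. The 30-base stretches below lie in the coding-strand direction of members that the results turn on, with the E2F site in capitals.
E2F1: gtggctctttcGCGGCAAAaaggaTTTGGC
E2F2: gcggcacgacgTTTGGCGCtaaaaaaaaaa
E2F3: ttgaaaagccgGCGGGAAAtccgagtttcg
CDC6: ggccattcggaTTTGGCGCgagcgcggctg
CDT1: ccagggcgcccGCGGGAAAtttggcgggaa
MCM6: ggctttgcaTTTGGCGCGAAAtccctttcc
MCM6, second stretch: ttggtcaggTTTGGCGCGAAAtctccagct
POLE: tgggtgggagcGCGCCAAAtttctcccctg
LIG1: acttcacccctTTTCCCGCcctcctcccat
CDC25A: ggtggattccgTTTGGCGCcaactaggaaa
UHRF1: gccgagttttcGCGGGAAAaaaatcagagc

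The E2F1 stretch is chr20:33686400-33686429 on the minus strand and ends inside a second site. Its sites begin 33 and 20 bases before the start. The E2F2 stretch is chr1:23531257-23531286 on the minus strand and the E2F3 stretch chr6:20401815-20401844 on the plus strand, with sites 42 and 53 bases before the start. E2F1, E2F2 and E2F3 thus each hold in their own promoter the letters that their proteins are known to bind. The MCM6 stretches, chr2:135876575-135876604 and chr2:135876513-135876542 on the minus strand, each hold 2 overlapping sites, one per strand. The POLE stretch is chr12:132687342-132687371 on the minus strand, with its site 18 bases before the start. The LIG1 stretch, chr19:48170440-48170469 on the minus strand, has its site farther out, 114 bases before the start, while that of CDC6, chr17:40287875-40287904 on the plus strand, begins 8 bases after it. The CDT1 stretch is chr16:88803743-88803772 on the plus strand, that of CDC25A chr3:48188443-48188472 on the minus strand and that of UHRF1 chr19:4909476-4909505 on the plus strand.

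Other motifs were counted in the same windows. The CCAAT box, CCAAT on either strand, was present in 59.5% of the members against 43.2% of tested genes, and the GC box, GGGCGG, in 76.2% against 76.8%. The CHR element, TTTGAA, which is known from G2/M genes, was present in 2 of 42 members, 4.76%, against 13.8% of tested genes. The THAP1 site, TNNNGGCA, was present in 45.2% against 45.7%. These letters were set after the data were seen, in place of TNNNNGGCA, which has 1 free base too many for that site and was present in 54.8% against 45.6%. A YY1 site, AAGATGGCG or AGATGGC, was present in 1 of 42, or 2.38%, against 9.02%. These are matches of letters, with no test, and binding was not measured in these data.

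Levels per kb of canonical transcript (GENCODE 44) placed the members over a wide range. In sgTHAP1 cells PCNA, the sliding clamp that holds polymerases on DNA, had 7.99 ± 0.08 log2 RPM per kb (SD, n = 6) and MCM7 7.67 ± 0.04, and in sgControl cells they had 8.08 ± 0.05 and 7.98 ± 0.04. E2F2 was the lowest member on the same per-kb scale, at 1.98 ± 0.10 in sgTHAP1 cells and 2.58 ± 0.14 in sgControl cells. PCNA and MCM7 thus stood apart from the other members at the top in all 3 conditions. Among licensing rings the lowest was MCM6, at 5.37 ± 0.15 in sgTHAP1 cells and 5.80 ± 0.03 in sgControl cells on the per-kb scale, and the SD of MCM5 in sgTHAP1 cells, at 5.71 ± 0.25, overlapped with it. TYMS, CCNE2 and POLA2 share over 50% of their exonic bases with a neighbouring gene, so their level is uncertain where reads were counted without regard to strand or neighbour, which the sources used here do not give.

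**Figure D1:**
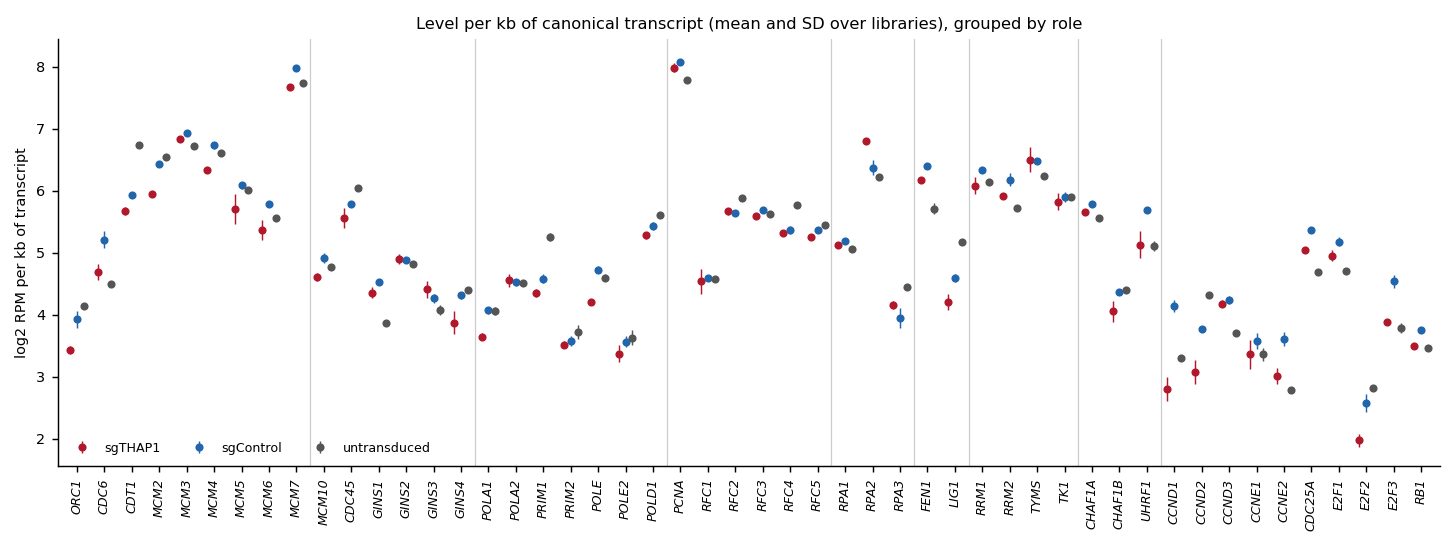
Mean level of each of the 50 genes in log2 RPM per kb of canonical transcript (vertical axis) in sgTHAP1 (n = 6), sgControl (n = 6) and untransduced (n = 3) libraries, with SD bars, and grey lines between roles. PCNA and MCM7 are at the top in each condition, and E2F2 is the lowest gene in sgTHAP1 and sgControl cells.

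Most members had lower transcripts in the cells labelled sgTHAP1. In sgTHAP1 against sgControl cells 38 of 50 members fell, where 32.6% of all tested genes were lower, 3 rose, where 20.2% of all genes were higher, and 9 were not called. The members had a median log2 fold change of -0.23, against -0.06 over all genes. In 29 members all 6 sgTHAP1 libraries lay below all 6 sgControl libraries, which held for 19.9% of all genes, and in 1, RPA2, they lay above, which held for 11.0%. In 16 members the sgTHAP1 libraries were also below the 3 untransduced ones (12.9% of all genes), and RPA2 was the 1 member above all 9 (7.12%). Falls were mostly small, and a single member, CCND1, passed the strict rule, where 1.83% of all genes did in that direction.

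Libraries of 1 guide share that guide and may share 1 cell population, which the sources used here do not give. P-values that count 6 libraries as independent are thus too small where the guide groups differ. With the guide population as a random block 32 members were lower and 1 higher (22.8% and 13.0% of all genes). The members that lost their call were POLE2, PCNA, RFC3, RFC5, RPA1 and CCNE1 among the falls and GINS3 and RPA3 among the rises. Under median centring 26 members were lower and 7 higher (22.3% and 31.9% of all genes), and under quantile normalization 32 were lower (25.3%). In bulk RNA, fewer cells in a phase of the cycle and less RNA per cell cannot be told apart.

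**Figure D2:**
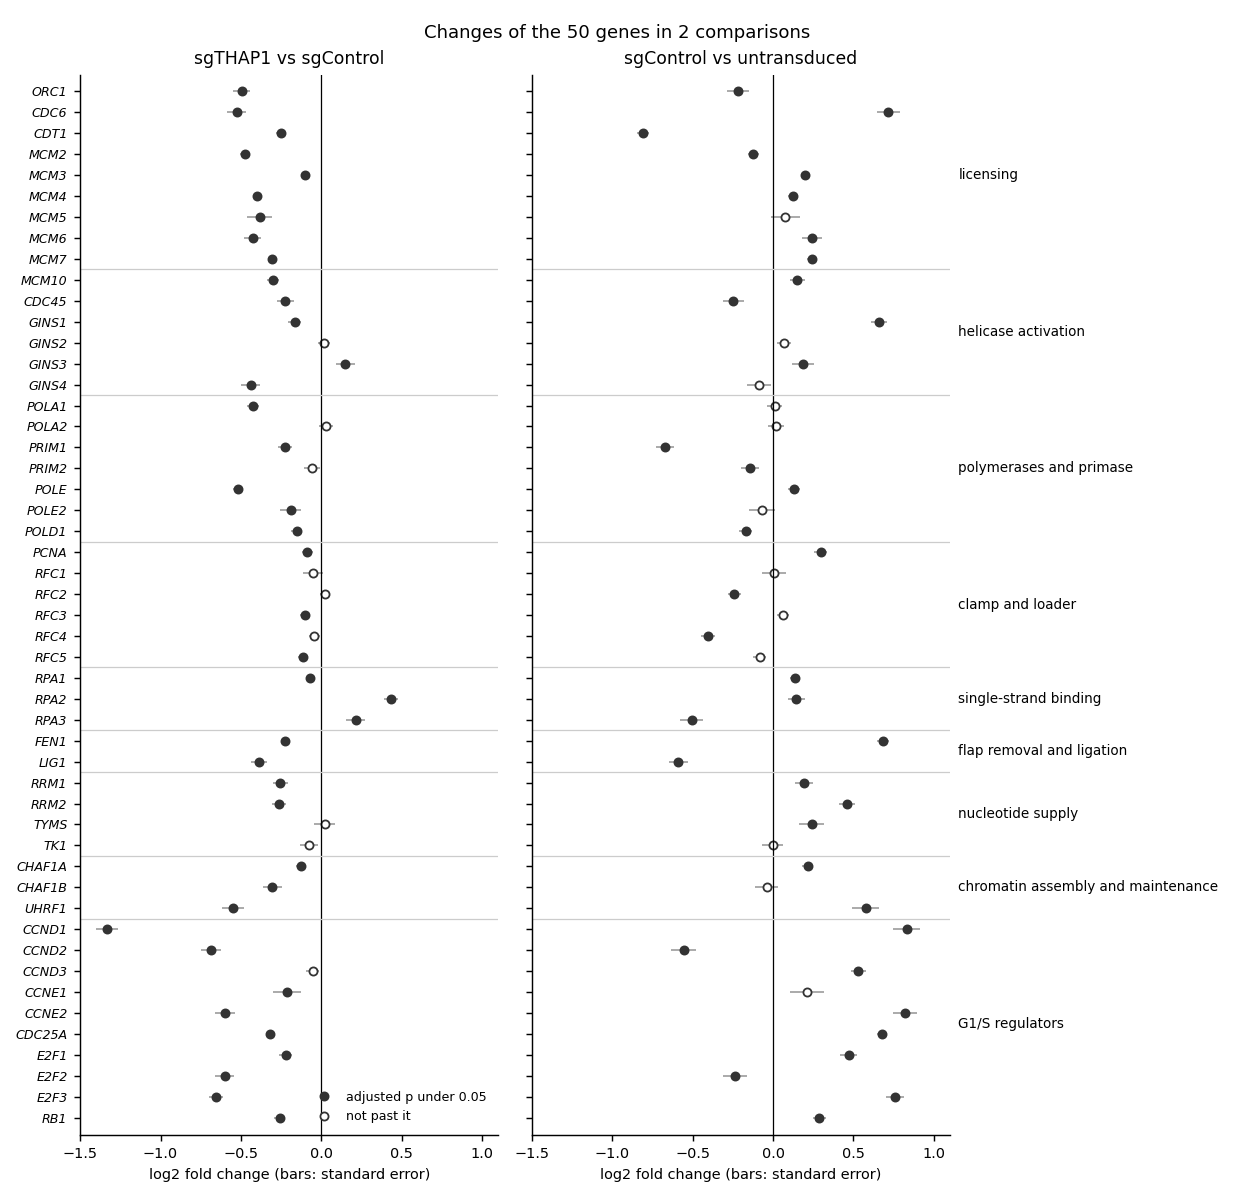
Log2 fold change of each gene (horizontal axis, bars are the standard error) in sgTHAP1 against sgControl cells and in sgControl against untransduced cells, grouped by role, with filled points for an adjusted p under 0.05. On the left 38 genes are lower and 3 higher, and CCND1 lies farthest out at -1.33. On the right 13 are lower and 25 higher.

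Among the G1/S regulators 9 of 10 fell (32.6% of all genes were lower), with a median log2 fold change of -0.46. CCND1 (cyclin D1, chr11:69641087-69654474 on the plus strand of GRCh38), the regulatory partner of CDK4 and CDK6, had the largest change of all members. It stood at 5.03, 5.11 and 4.93 log2 RPM with sg1-THAP1 and 4.68, 4.64 and 4.96 with sg2-THAP1, against 6.29, 6.32 and 6.26 with sg1-Control, 6.06, 6.28 and 6.14 with sg2-Control, and 5.35, 5.41 and 5.42 in untransduced cells. The 6 sgTHAP1 libraries were the lowest of the 15 and the 6 sgControl libraries the highest, with no overlap. Its level in sgTHAP1 cells was 39.7% of that in sgControl cells (log2 fold change -1.33, standard error 0.07, limma adjusted p = 4.4e-12).

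CCND2 (cyclin D2, chr12:4273772-4305350, plus strand) fell to 62.1% of the sgControl level (-0.69, standard error 0.06, limma adjusted p = 1.5e-08). It stood at 5.93, 6.0 and 5.93 log2 RPM with sg1-THAP1 and 5.55, 5.59 and 5.71 with sg2-THAP1, against 6.47, 6.47 and 6.44 with sg1-Control, 6.47, 6.44 and 6.54 with sg2-Control, and 7.01, 7.04 and 7.04 in untransduced cells. Unlike CCND1, whose highest libraries were sgControl, CCND2 was highest in untransduced cells. CCND3, the remaining D-type cyclin, differed by -0.06 (standard error 0.04, limma adjusted p = 0.25) between sgTHAP1 and sgControl.

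Of the activator E2F genes, E2F3 had the largest fall, to 63.4% (-0.66, standard error 0.04, limma adjusted p = 1.7e-10). It stood at 6.24, 6.19 and 6.23 log2 RPM with sg1-THAP1 and 6.20, 6.30 and 6.16 with sg2-THAP1, against 6.97, 6.96 and 6.97 with sg1-Control, 6.79, 6.75 and 6.83 with sg2-Control, and 6.04, 6.20 and 6.11 in untransduced cells. E2F3 was thus near the untransduced level in sgTHAP1 cells and higher in all 6 sgControl libraries. E2F2 stood at 4.17, 4.32 and 4.40 with sg1-THAP1 and 4.44, 4.40 and 4.42 with sg2-THAP1, against 5.19, 4.99 and 4.97 with sg1-Control, 4.96, 4.79 and 4.85 with sg2-Control, and 5.22, 5.19 and 5.18 in untransduced cells. It fell to 65.9% of the sgControl level (-0.60, standard error 0.06, limma adjusted p = 6.0e-08), and no sgTHAP1 library overlapped any other. E2F1 fell by 0.22 on the log2 scale, and RB1, the pocket protein that holds E2F in check, by 0.26.

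The E-type cyclins activate CDK2 at the start of S phase. CCNE2 stood at 4.49, 4.58 and 4.57 log2 RPM with sg1-THAP1 and 4.37, 4.30 and 4.29 with sg2-THAP1, against 5.16, 5.13 and 5.10 with sg1-Control, 4.90, 4.90 and 5.0 with sg2-Control, and 4.26, 4.15 and 4.22 in untransduced cells. It fell to 65.9% of the sgControl level (-0.60, standard error 0.06, limma adjusted p = 9.0e-08), and its 6 sgTHAP1 libraries lay between the untransduced and the sgControl ones. INTS8 and an unnamed gene both lie opposite its exons, and the larger of these overlaps covers 56.9% of its exonic bases. INTS8 differed by -0.15 in the same comparison. CCNE1 stood at 4.47, 4.63 and 4.51 with sg1-THAP1 and 4.14, 4.16 and 4.07 with sg2-THAP1, against 4.71, 4.59 and 4.63 with sg1-Control, 4.47, 4.51 and 4.35 with sg2-Control, and 4.28, 4.45 and 4.26 in untransduced cells. Its call (-0.21, limma adjusted p = 0.0455) rested on sg2-THAP1, since the change was -0.01 with sg1-THAP1 and -0.42 with sg2-THAP1 against both control guides. It was lost on leaving out any of 10 single libraries, and the two-sided exact permutation test of 6 against 6 libraries gave p = 0.0931. CDC25A, the phosphatase that removes inhibitory phosphate from CDK2, stood at 6.99, 7.03 and 7.0 with sg1-THAP1 and 6.97, 6.98 and 6.98 with sg2-THAP1, against 7.35, 7.36 and 7.32 with sg1-Control, 7.27, 7.27 and 7.29 with sg2-Control, and 6.61, 6.62 and 6.67 in untransduced cells. It fell by 0.32 on the log2 scale, with the sgTHAP1 libraries between the sgControl and untransduced ones and within a narrow range.

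**Figure D3:**
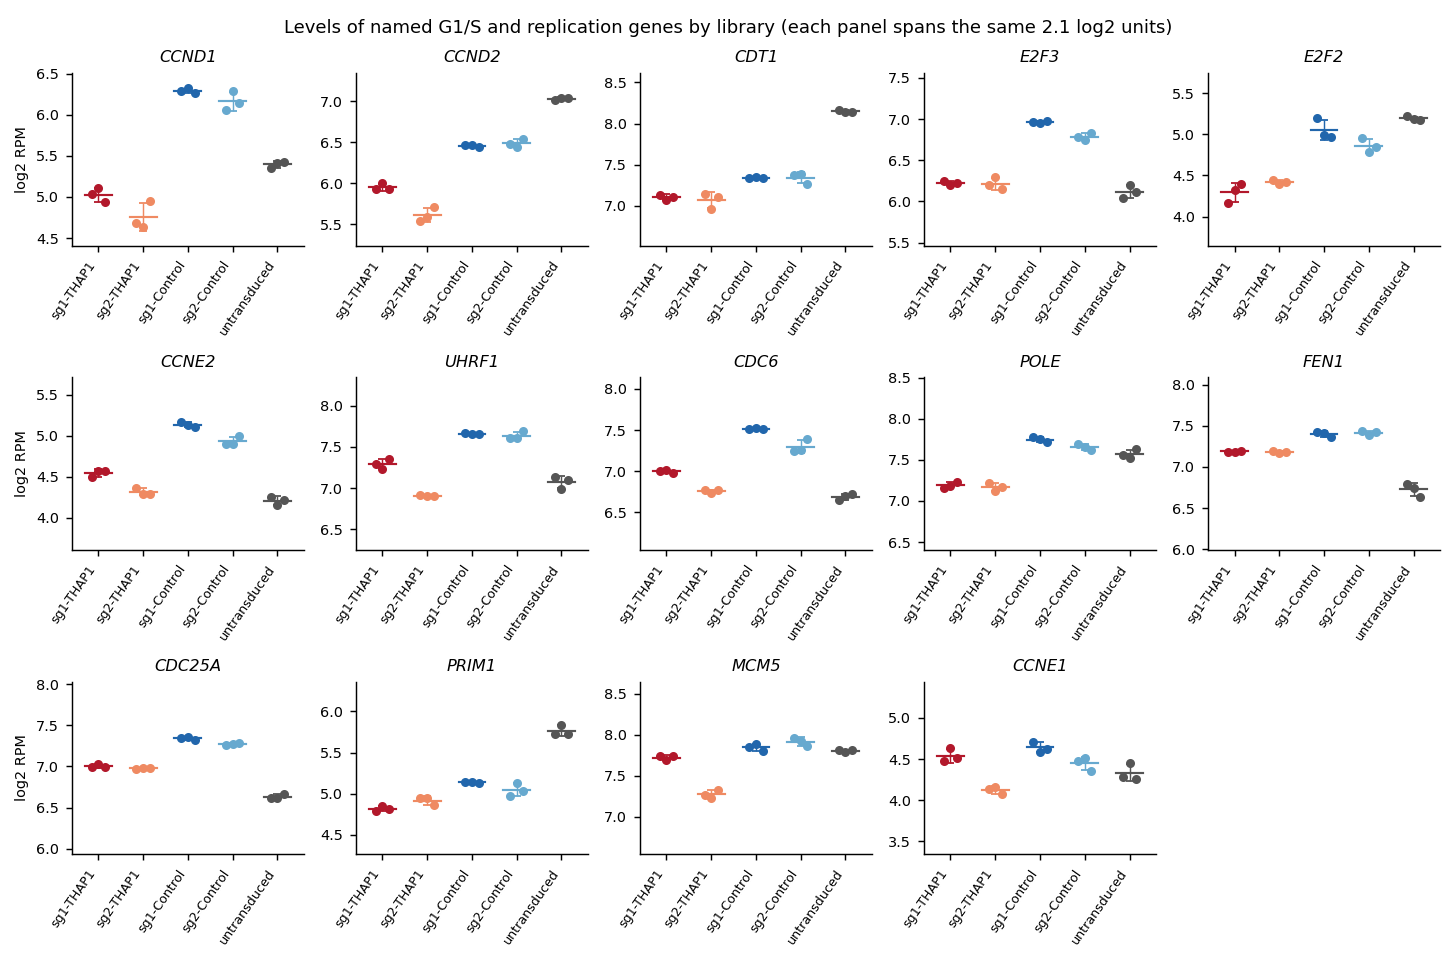
Level in log2 RPM (vertical axis, each panel of the same height in log2 units) of the 14 genes that the naming rule selected, with 1 point per library and the mean and SD of each group. CCND1 and E2F2 are lowest in both sgTHAP1 groups, CDT1 and PRIM1 are highest in untransduced cells, and MCM5 and CCNE1 are lowest with sg2-THAP1.

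All 9 licensing genes fell (32.6% of all genes were lower). Their median log2 fold change was -0.40, with a range of -0.53 to -0.10. CDC6, the loader that acts with the origin recognition complex, stood at 7.0, 7.01 and 6.98 log2 RPM with sg1-THAP1 and 6.77, 6.74 and 6.77 with sg2-THAP1, against 7.51, 7.53 and 7.51 with sg1-Control, 7.25, 7.25 and 7.39 with sg2-Control, and 6.65, 6.70 and 6.72 in untransduced cells. It fell to 69.4% of the sgControl level (-0.53, standard error 0.06, limma adjusted p = 2.4e-07), and every sgTHAP1 library lay between the untransduced and sgControl ranges. ORC1, the largest subunit of the origin recognition complex, fell by 0.50 and was lower in all 6 sgTHAP1 libraries than in the 9 others.

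CDT1 (chr16:88803213-88809258, plus strand), the partner of CDC6 that geminin restrains, stood at 7.14, 7.07 and 7.11 log2 RPM with sg1-THAP1 and 7.15, 6.96 and 7.11 with sg2-THAP1, against 7.33, 7.35 and 7.34 with sg1-Control, 7.38, 7.39 and 7.26 with sg2-Control, and 8.16, 8.14 and 8.14 in untransduced cells. The 3 conditions did not overlap, and the untransduced libraries were farthest from the rest. The change was -0.25 (standard error 0.03, limma adjusted p = 1.8e-06) in sgTHAP1 against sgControl and -0.81 (standard error 0.04, limma adjusted p = 6.1e-13) in sgControl against untransduced cells.

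The 6 subunits of the MCM ring all fell (32.6% of all genes were lower) but not by the same amount. MCM2 changed by -0.48, MCM6 by -0.43, MCM4 by -0.40, MCM5 by -0.38, MCM7 by -0.31 and MCM3 by -0.10 on the log2 scale. MCM3 was the least changed of the ring, and its direction turned under median centring, to 0.01. MCM5 stood at 7.74, 7.69 and 7.74 log2 RPM with sg1-THAP1 and 7.27, 7.23 and 7.33 with sg2-THAP1, against 7.85, 7.89 and 7.80 with sg1-Control, 7.96, 7.92 and 7.87 with sg2-Control, and 7.81, 7.79 and 7.82 in untransduced cells. Both guides put MCM5 below the control libraries, and sg2-THAP1 lay well below sg1-THAP1. For MCM2, 32.4% of the exonic bases lie opposite an unnamed gene.

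Helicase activation factors were mixed. GINS4 fell by 0.44, MCM10 by 0.30, CDC45 by 0.22 and GINS1 by 0.17 on the log2 scale, while GINS3 rose by 0.15 and GINS2 differed by 0.02 (standard error 0.04, limma adjusted p = 0.72). The 4 GINS proteins form 1 complex, yet their transcripts differed in direction. GPAT4-AS1 and an unnamed gene both lie opposite GINS4 exons, and the larger of these overlaps covers 30.4% of its exonic bases. The rise of GINS3 was lost on leaving out any of 6 single libraries, with values of 0.11 to 0.15.

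Of the 7 polymerase and primase genes 5 fell (32.6% of all genes were lower). The call of POLE2 was lost with sg1-THAP1 alone, at -0.0872. POLE, the catalytic subunit of the leading-strand polymerase epsilon, stood at 7.16, 7.18 and 7.23 log2 RPM with sg1-THAP1 and 7.21, 7.13 and 7.17 with sg2-THAP1, against 7.77, 7.75 and 7.71 with sg1-Control, 7.69, 7.65 and 7.62 with sg2-Control, and 7.55, 7.53 and 7.63 in untransduced cells. It fell to 69.7% of the sgControl level (-0.52, standard error 0.03, limma adjusted p = 4.8e-11), and its sgTHAP1 libraries were lower than the 9 others. POLA1, the catalytic subunit of polymerase alpha, fell by 0.42, while its partner POLA2 differed by 0.03 (standard error 0.04, limma adjusted p = 0.58). The primase pair was likewise uneven. PRIM1, its catalytic subunit, stood at 4.79, 4.85 and 4.82 with sg1-THAP1 and 4.95, 4.95 and 4.86 with sg2-THAP1, against 5.14, 5.15 and 5.13 with sg1-Control, 4.98, 5.14 and 5.03 with sg2-Control, and 5.73, 5.84 and 5.73 in untransduced cells. PRIM1 fell by 0.23 in sgTHAP1 cells, without overlap, whereas PRIM2 differed by -0.06 (standard error 0.05, limma adjusted p = 0.32). NACA and an unnamed gene on the same strand both overlap PRIM1 exons, and the larger overlap covers 25.4% of its exonic bases. HSD17B6 lies opposite 8.64% of them. NACA differed by 0.10 (limma adjusted p = 0.0661).

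The clamp and its loader moved least. PCNA fell by 0.09, RFC3 by 0.10 and RFC5 by 0.11, and RFC1, RFC2 and RFC4 were not called, with changes of -0.05, 0.02 and -0.04 on the log2 scale. Under median centring PCNA, RFC3 and RFC5 turned to 0.02, 0.01 and 0.001, so their direction depended on the scaling. The PCNA call was also lost with sg1-THAP1 alone, at -0.0255, and on leaving out any 1 library of sg1-Control or sg2-THAP1.

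The single-strand binding complex RPA, which coats unwound DNA, went partly the other way. RPA2 was named after its values were seen, as the 1 member higher in all 6 sgTHAP1 libraries than in the 9 others. It stood at 7.45, 7.46 and 7.42 log2 RPM with sg1-THAP1 and 7.49, 7.52 and 7.48 with sg2-THAP1, against 7.18, 7.12 and 7.13 with sg1-Control, 6.97, 6.92 and 6.91 with sg2-Control, and 6.92, 6.91 and 6.85 in untransduced cells. It rose 1.35-fold (log2 fold change 0.43, standard error 0.04, limma adjusted p = 4.4e-08). RPA3 rose by 0.21, and RPA1, the large DNA-binding subunit, fell by 0.07 and turned to 0.04 under median centring. The RPA1 call was also lost with sg2-THAP1 alone, at -0.0402, and on leaving out any 1 library of sg1-THAP1.

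FEN1, which removes flaps between Okazaki fragments, stood at 7.19, 7.18 and 7.20 log2 RPM with sg1-THAP1 and 7.19, 7.17 and 7.19 with sg2-THAP1, against 7.43, 7.42 and 7.36 with sg1-Control, 7.44, 7.39 and 7.42 with sg2-Control, and 6.80, 6.74 and 6.64 in untransduced cells. It fell by 0.22, and the 6 sgTHAP1 libraries lay between the 2 other conditions with almost no spread. LIG1, the ligase that seals the fragments, fell by 0.39 and was lowest in all 6 sgTHAP1 libraries.

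Of the nucleotide enzymes RRM1 and RRM2, the subunits of ribonucleotide reductase, both fell, by 0.26 each, and TYMS and TK1, which make and salvage thymidylate, were not called at 0.02 and -0.08. The chromatin factors all fell (32.6% of all genes were lower). UHRF1, which guides DNA methylation to copied DNA, stood at 7.29, 7.23 and 7.35 log2 RPM with sg1-THAP1 and 6.91, 6.90 and 6.90 with sg2-THAP1, against 7.67, 7.65 and 7.66 with sg1-Control, 7.61, 7.61 and 7.69 with sg2-Control, and 7.14, 6.99 and 7.10 in untransduced cells. It fell to 68.2% of the sgControl level (-0.55, standard error 0.07, limma adjusted p = 1.1e-06), and the sg1-THAP1 libraries lay above the untransduced ones while the sg2-THAP1 libraries lay below them. CHAF1B and CHAF1A, subunits of the histone chaperone CAF-1, fell by 0.31 and 0.13.

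The two-sided exact permutation test of 6 sgTHAP1 against 6 sgControl libraries reached its smallest p, 0.00216 (2 of 924 arrangements), for 30 members, the 29 and the 1 whose libraries did not overlap. It counts libraries of 1 guide as independent, so this p restates the lack of overlap and is too small where guide populations differ. Each guide was then set against both control guides in a fit with 1 coefficient per guide. With sg1-THAP1 37 members were lower and 3 higher (39.3% and 20.1% of all genes), and with sg2-THAP1 38 were lower and 6 higher (30.6% and 25.6%). In 34 members both guides were lower (24.4% of all genes), and in RPA2 and RPA3 both were higher (14.6% of all genes). These 2 sets of values share the sgControl libraries.

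The THAP1 guides differed from each other in 26 members, where 19 were lower with sg2-THAP1 (11.7% of all genes) and 7 higher (28.3%). The control guides differed in 8, all lower with sg2-Control (2.06% of all genes), namely ORC1, CDC6, MCM4, MCM10, RPA2, RRM2, CCNE2 and E2F3, by 0.09 to 0.23 on the log2 scale. None was higher with sg2-Control (1.82% of all genes) in limma or in voom on recovered reads, and 2 were at an unadjusted p under 0.05. The largest differences, sg2-THAP1 minus sg1-THAP1, were those of MCM5 (-0.44, standard error 0.03), CCNE1 (-0.42, standard error 0.06) and UHRF1 (-0.39, standard error 0.03). In these 3 genes the fall was the larger with sg2-THAP1.

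The guides moved 2 members in opposite directions, RFC1, the large subunit of the clamp loader, and TYMS, and these were named after their values were seen. RFC1 stood at 6.65, 6.67 and 6.64 log2 RPM with sg1-THAP1 and 7.02, 7.06 and 6.92 with sg2-THAP1, against 6.88, 6.85 and 6.87 with sg1-Control, 6.82, 6.89 and 6.95 with sg2-Control, and 6.85, 6.91 and 6.85 in untransduced cells. TYMS stood at 7.01, 6.99 and 7.02 with sg1-THAP1 and 7.38, 7.38 and 7.39 with sg2-THAP1, against 7.20, 7.19 and 7.17 with sg1-Control, 7.14, 7.16 and 7.19 with sg2-Control, and 6.92, 6.93 and 6.96 in untransduced cells. For both genes the pooled change near 0 was the mean of a fall with sg1-THAP1 and a rise with sg2-THAP1. ENOSF1 and TYMSOS both lie opposite TYMS exons, and the larger of these overlaps covers 60.0% of its exonic bases.

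**Figure D4:**
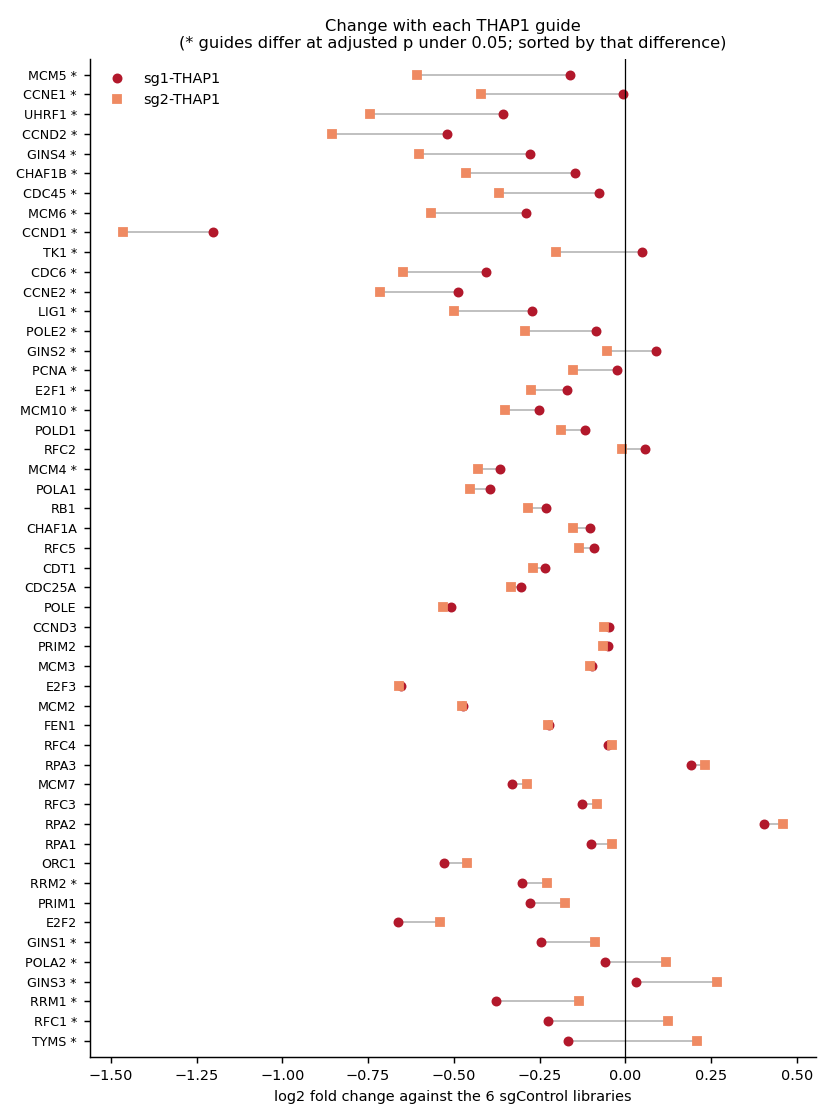
Log2 fold change of each gene against the 6 sgControl libraries (horizontal axis) with sg1-THAP1 (circles) and sg2-THAP1 (squares), sorted by the difference between guides, with an asterisk where the guides differ at an adjusted p under 0.05. MCM5, CCNE1 and UHRF1 are at the top with the larger fall in sg2-THAP1, and RFC1 and TYMS at the bottom lie on opposite sides of 0. The points of GINS2, POLA2 and TK1 also do.

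Members differed between sgControl and untransduced cells too. These groups differ in transduction, Cas9 and a control guide together, whose effects cannot be told apart. In sgControl against untransduced cells 25 members were higher (28.1% of all genes) and 13 lower (40.5%), with a median log2 fold change of 0.13 against -0.12 over all genes. With the guide population as a random block 22 were higher and 10 lower (22.9% and 29.5% of all genes). The balance depended on the scaling, since quantile normalization gave 16 higher members (33.7% of all genes) and a median of -0.04, and median centring 6 lower members (30.2%) and a median of 0.28. The largest changes were those of CCND1 (0.83, standard error 0.08), CCNE2 (0.82, standard error 0.08), CDT1 (-0.81, standard error 0.04), E2F3 (0.76, standard error 0.05) and CDC6 (0.72, standard error 0.07).

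The next largest changes of this comparison ran in both directions too. FEN1 rose by 0.68, CDC25A by 0.68 and GINS1 by 0.66, whereas PRIM1 fell by 0.67 and LIG1 by 0.59. None of the 50 passed the strict rule or reached 2-fold, where 8.76% of all genes were lower and 2.29% higher by that rule. The G1/S regulators were mostly higher, with 7 of 10 rising (28.1% of all genes) and a median of 0.50. CCND2 and E2F2 fell (40.5% of all genes were lower). Of the 7 polymerase and primase genes 3 were lower, a share near that of all genes, and POLE was higher at 0.13. The calls of PRIM2 and POLE were lost with the random block, and POLE turned to -0.0565 under quantile normalization.

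Set directly against untransduced cells, sgTHAP1 cells had 24 members lower (45.5% of all genes) and 14 higher (26.9%), with a median of -0.07 against -0.20 over all genes. Both member shares lay closer to those of all genes than in sgTHAP1 against sgControl. By the strict rule CCND2 (-1.24, standard error 0.08, limma adjusted p = 9.9e-12) and CDT1 (-1.06, standard error 0.04, limma adjusted p = 6.7e-15) were lower, where 13.4% of all genes were. LIG1 followed at -0.97, PRIM1 at -0.90 and E2F2 at -0.84. CCND1 was lower by 0.50 and POLE by 0.39. By contrast E2F3, UHRF1, CCNE1 and RB1 were not called, at 0.10, 0.03, -0.002 and 0.03, and FEN1, GINS1, CCND3 and CDC25A were higher by 0.46, 0.49, 0.47 and 0.36. Under median centring 13 members were lower and 25 higher, against 31.3% and 41.5% of all genes, so the balance of all genes turned as well.

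Members with an E2F site in the promoter window were compared by count with those without. Those without include RB1, whose only window lies near the end of the gene. In sgTHAP1 against sgControl 18 of the 22 with a site fell and 1 rose, with a median of -0.28. Of the 20 without one 14 fell, with a median of -0.18. Of the 8 members with no window 6 fell and 2 rose, and their median, -0.42, was the lowest. Over all genes 32.6% were lower and 20.2% higher. In sgControl against untransduced cells 13 of the 22 with a site rose and 4 fell, and of the 20 without one 8 rose and 7 fell. Of the 8 with no window 4 rose and 2 fell, and over all genes 28.1% were higher and 40.5% lower. Genes without a site, such as ORC1 at -0.50 and CHAF1B at -0.31, were among the larger falls in sgTHAP1, and genes with one, such as GINS2 and POLA2, were not called. The counts are a description and carry no test.

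A list of 63 further genes of G1/S control and replication, none of them members, gives the rest of the pathway. In sgTHAP1 against sgControl 28 fell, 10 rose and 25 were not called. These are 44.4% lower and 15.9% higher, against 32.6% and 20.2% of all genes. Their median of -0.06 was close to that of all genes. CDK6, the partner of D-type cyclins, changed by -0.63, the atypical repressor E2F8 by -0.63, the clamp unloader component ATAD5 by -0.63 and CDKN1A, the p21 inhibitor of CDKs, by -0.81. CDKN2C, an inhibitor of CDK4 and CDK6, rose by 0.65, and POLE4, an accessory subunit of polymerase epsilon, by 0.36. In sgControl against untransduced cells 28 of the 63 rose and 21 fell (44.4% and 33.3%, against 28.1% and 40.5% of all genes).

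Transcripts of the next phase of the cycle moved otherwise. Of 20 G2/M genes 14 rose and none fell in sgTHAP1 against sgControl with both guides pooled (20.2% and 32.6% of all genes). Their median was 0.26 and their lowest value 0.03. UBE2C, which helps degrade mitotic cyclins, rose by 0.51, the kinetochore motor CENPE by 0.50 and CCNB1, cyclin B1, by 0.27. The rise rested mainly on sg2-THAP1. Against both control guides all 20 were higher with sg2-THAP1 (25.6% of all genes), with a median of 0.43. With sg1-THAP1 9 were higher and 4 lower (20.1% and 39.3% of all genes), with a median of 0.06 and a lowest value of -0.26. Of the 20, 19 were higher in sg2-THAP1 than in sg1-THAP1 (28.3% of all genes), with a median difference of 0.35. The part of the share of cells in each phase in the member changes was not tested.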

How the data were processed

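RNA-seq of HEK-293T cells (15 libraries) was analysed from 1 deposited table. The authors trimmed reads with Cutadapt (4.1), aligned them to GRCh38 with HISAT2 (2.2.1) and analysed them in SeqMonk (1.48.1), and deposited log2 RPM values per gene. The libraries were strand-specific, and the sources used here do not give the annotation or strand setting of the counting. Steps between low values gave whole reads for 99.8% of values (within 0.01 of a read), with 90.8% to 94.5% of a library's reads in listed genes and 0 reads listed at 0.9 of a read. Columns with the authors' own fold changes (3) and group means (7) were not used.

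Genes of at least -2 log2 RPM in at least 3 libraries were tested in limma (3.58.1, R 4.3.3; lmFit, eBayes with a trend, Benjamini-Hochberg), with 3 conditions or with 5 guide groups as coefficients, checked on simulated data. Permutation tests used scipy (1.17.1). No replicate pair agreed within sampling noise (chi-square per degree of freedom 2.41 to 4.06). The alternatives tried were median centring and quantile normalization, other filters on low values, a pseudocount (0.5), array weights, voom on the recovered reads, a random or a replicate block, 1 guide alone and 1 library left out. Values in every library were given for members past the strict rule, the 8 largest called changes in sgTHAP1 against sgControl and in sgControl against untransduced cells, and the 3 largest between THAP1 guides. The members and lists were chosen with earlier results of these data known. Some items are not reported here.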

Additional observations from a re-analysis of the deposited data

Results flagged for a closer look

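Of 100 sets of 6 libraries (50 genes in sgTHAP1 and in sgControl cells), 5 had a library far from the others by Dixon's test at the 95% level, and chance gives about 1 in 20. In sg2-Control replicate 3, MCM2 stood at 8.12 log2 RPM (nearest sgControl library 8.21), CCND2 at 6.54 (nearest 6.47) and CCND3 at 5.14 (nearest 5.26). RFC3 stood at 6.88 in sg2-THAP1 replicate 2 (nearest sgTHAP1 library 6.79) and at 6.83 in sg2-Control replicate 1 (nearest sgControl library 6.90). Without sg2-Control replicate 3, 37 members were lower and 2 higher in sgTHAP1 than in sgControl.

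The level differed between the THAP1 guides in 26 members in limma at an adjusted p under 0.05. The difference, sg2-THAP1 minus sg1-THAP1 on the log2 scale, was below 0 in 19. Among the G1/S regulators it was -0.42 for CCNE1, -0.34 for CCND2, -0.26 for CCND1, -0.23 for CCNE2 and -0.10 for E2F1. Among licensing and helicase genes it was -0.44 for MCM5, -0.28 for MCM6, -0.24 for CDC6, -0.06 for MCM4, -0.33 for GINS4, -0.29 for CDC45, -0.14 for GINS2 and -0.10 for MCM10. Among the rest it was -0.39 for UHRF1, -0.32 for CHAF1B, -0.25 for TK1, -0.23 for LIG1, -0.21 for POLE2 and -0.13 for PCNA. It was above 0 in 7, at 0.37 for TYMS, 0.35 for RFC1, 0.24 for RRM1, 0.24 for GINS3, 0.18 for POLA2, 0.16 for GINS1 and 0.07 for RRM2.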

How the results depend on the processing

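In sgTHAP1 against sgControl 38 members were lower, and 26 to 39 were under the other filters, scalings, fits and single guides. Leaving out 1 library gave 35 to 38 lower, 2 to 3 higher and medians of -0.25 to -0.22. In all 30 fits 26 members were lower and 1, RPA2, higher. Higher members numbered 7 with median centring, 1 with the random block, 6 with sg2-THAP1 alone and 1 with sg1-Control alone. The median was -0.19 with quantile normalization, -0.11 with median centring, -0.26 with array weights, and -0.27 with sg2-THAP1 alone and with sg1-Control alone. The strict rule left 1 lower and 0 higher here, 0 lower and 0 higher in sgControl against untransduced cells, and 2 lower and 0 higher in sgTHAP1 against untransduced cells.

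In sgControl against untransduced cells quantile normalization gave 16 higher and turned the median to -0.0376, median centring gave 6 lower and a median of 0.28, and sg2-Control alone a median of 0.0804. Leaving out 1 library gave 12 to 13 lower, 23 to 26 higher and medians of 0.12 to 0.14. In sgTHAP1 against untransduced cells quantile normalization gave 8 higher and a median of -0.16, median centring 13 lower, 25 higher and a turned median of 0.20, array weights a median of -0.13 and sg2-THAP1 alone -0.20. Leaving out 1 library gave 22 to 25 lower, 12 to 15 higher and medians of -0.09 to -0.07. Between THAP1 guides the median was -0.093 with quantile normalization, and median centring gave 32 lower, 4 higher and a median of -0.14. Leaving out 1 library gave 16 to 20 lower, 6 to 7 higher and medians of -0.05 to -0.03, and between control guides 5 to 10 lower, 0 higher and medians of -0.07 to -0.06. Without sg1-Control replicate 3, 5 members differed between control guides.

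Single members changed direction as follows, and the cause was not tested beyond the scaling or guide itself. In sgTHAP1 against sgControl median centring turned MCM3 to 0.0134, PCNA to 0.0244, RFC3 to 0.01, RFC5 to 0.001 and RPA1 to 0.0431. RFC1 was 0.12 with sg2-THAP1 alone and TYMS -0.17 with sg1-THAP1 alone. In sgControl against untransduced cells median centring turned MCM2 to 0.0351 and PRIM2 to 0.0134. Quantile normalization gave -0.006 for MCM3, -0.0376 for MCM4, -0.0185 for MCM10, -0.13 for POLA1, -0.0565 for POLE, -0.0922 for RFC3, -0.0426 for RPA1, -0.0174 for RPA2 and -0.0088 for RRM1. In sgTHAP1 against untransduced cells UHRF1 was -0.17 with sg2-THAP1 alone and CCNE1 0.21 with sg1-THAP1 alone, and between THAP1 guides RRM2 was -0.0271 with median centring.

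The replicate numbers did not pair the libraries, with correlations of same-numbered libraries of -0.13 to 0.04 and 0 of 30 over 0.1. With a replicate block 37 members were lower and 3 higher in sgTHAP1 against sgControl, 13 lower and 25 higher in sgControl against untransduced cells, 24 and 14 in sgTHAP1 against untransduced cells, 19 and 7 between THAP1 guides and 8 and 0 between control guides. The thinnest value of a member rested on 474 reads in a library (POLE2), and the thinnest of a member given library by library on 551.

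Over all tested genes the balance moved with the scaling too. In sgTHAP1 against sgControl 5476 genes were lower and 3390 higher, with 4249 and 4585 under quantile normalization and 3742 and 5363 under median centring. In sgControl against untransduced cells the counts were 6799 and 4724, with 5314 and 5659 under quantile normalization and 5072 and 6353 under median centring. In sgTHAP1 against untransduced cells they were 7642 and 4515, with 5524 and 6065 under quantile normalization and 5258 and 6966 under median centring.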
